A study of Sus scrofa with 8 samples.

Results

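Toll-like receptors and their adaptor MYD88 were followed in the jejunum of weaned and suckling piglets. The set was fixed by name, with no comparison of the groups, though earlier results of these data were known. It held TLR1 to TLR9 and MYD88. Each gene was taken through the non-control array probe whose RefSeq accession maps to its symbol. Where a gene had several, the probe of highest mean log2 processed signal was used. Of the 10 genes listed, 9 had such a probe, out of 43603 probes and 3216 symbols on the array; TLR5, the receptor for bacterial flagellin, had none by this route and was not analysed here. All 9 probes were well above background on all 8 arrays. They were therefore measured in both groups and none entered the test through one group alone.

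The arrays held total RNA of the middle jejunum from 25-day-old Duroc × Landrace piglets, with 1 piglet per array. The 4 weaned piglets had been taken from the sow at 21 days of age, moved to nursery pens and fed a basal diet, so they were sampled 4 days after weaning. The 4 suckling piglets of the same age had stayed with the sow. Each treatment took 1 piglet from each of 4 litters, although the labels do not say which number belongs to which litter, and the sample was a whole piece of gut wall about 2 cm long in which epithelium, immune cells, vessels and muscle are mixed. In such bulk tissue, fewer cells of a type and less RNA per cell cannot be told apart.

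Toll-like receptors are membrane proteins that recognise molecules shared by many microbes. Those on the cell surface (TLR1, TLR2, TLR4 and TLR6) bind parts of bacterial walls, and those in endosomes (TLR3, TLR7, TLR8 and TLR9) bind nucleic acids. Apart from TLR3, they recruit MYD88, which passes the signal through IRAK kinases and TRAF6 to the transcription factor NF-kB and on to cytokine genes. In the gut they are known from epithelium as well as from macrophages, dendritic cells and lymphocytes, where they meet products of the gut flora.

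The values below are log2 processed signals minus the 75th percentile of the same array, so 0 marks that percentile and -1 a signal at 50% of it. Because each probe has its own brightness, levels were compared between arrays for one gene or for one fixed sum of genes, and not between genes. The processed intensities of the 9 genes ran from 15.6 to 1470 units on the linear scale, and the extraction software put the error of each of these spots at 10.0% to 16.4% of its signal. None of the 72 spot values was marked as an outlier or saturated.

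All 4 weaned arrays lay on one slide and all 4 suckling arrays on another, so any effect of slide cannot be told apart from that of weaning. The 75th percentile of the intensity was 316 to 390 in weaned arrays and 244.0 to 393 in suckling arrays, with suckling replicate 1 the lowest. Suckling replicate 1 stood apart: its mean correlation with its own group across probes was 0.958, against 0.972 to 0.985 for the other arrays. It correlated best with weaned replicate 1, but weaned and suckling replicate 3 also had their best match in the other group. The labelled tissue was checked on markers of absorptive epithelium, and FABP1, FABP2, ANPEP, CDH1 and EPCAM were well above background on every array. Of 9 macrophage markers 4 had a probe, all above background on every array, and their summed level was 238 to 341 in weaned arrays and 38.7 to 182 in suckling arrays (linear signal, in units of the 75th percentile). LYZ, which encodes lysozyme, was the brightest of the 4 on every array and so weighed most in this linear sum. Which cells of the gut wall carried the LYZ signal was not tested, so the sum is no measure of macrophage number. Its log2 signal was 7.68 to 8.28 in weaned and 4.23 to 7.26 in suckling arrays. LYZ and AIF1 were higher on every weaned array than on any suckling array, which held for 4.83% of all tested probes. Their limma adjusted p-values were 0.298 and 0.477. The macrophage scavenger receptor CD163 and SIRPA overlapped between the groups, so the summed level does not stand for all 4 markers. Of 6 neutrophil markers 3 had a probe, and S100A12 was above background on all 8 arrays, S100A8 on 7 and S100A9 on 4. Their summed level was 0.0642 to 0.649 in weaned arrays and 0.101 to 0.201 in suckling arrays. The summed level of 4 endothelial markers was 10.71 to 11.93 in weaned and 13.29 to 15.21 in suckling arrays. Of these markers, CDH5 alone was lower on every weaned array than on any suckling array, which held for 2.89% of all tested probes. PECAM1, VWF and KDR overlapped. The summed levels also overlapped for markers of T and NK cells, B and plasma cells, dendritic cells, absorptive epithelium, goblet and Paneth cells, fibroblasts and smooth muscle. The part of these marker levels in the receptor values was not tested.

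The comparison asks whether the jejunum of piglets 4 days after weaning carries other levels of these receptor transcripts than the jejunum of suckling piglets of the same age. None of the 9 genes passed the test (limma, Benjamini-Hochberg adjusted over all 30556 tested probes, threshold 0.05), where 54 probes did, 0.177% of those tested. With all 8 arrays none passed at an unadjusted p under 0.05 either, by limma or by an exact permutation test. Of all tested probes, 12.3% did so by limma and 7.72% by permutation. With 1 array left out, 1 gene had a limma unadjusted p under 0.05 in 4 of the 8 runs and none in the other 4. These were TLR4 without weaned replicate 3, TLR8 without weaned replicate 4, TLR7 without suckling replicate 1 and TLR6 without suckling replicate 2 (limma unadjusted p = 0.0306, 0.0362, 0.0285 and 0.0467; adjusted p = 0.349, 0.476, 0.172 and 0.499, in this order). In these 4 runs, in the same order, 3821 of 30138, 2950 of 30344, 6827 of 30346 and 2973 of 30159 tested probes did so by limma. In no gene were the 4 weaned arrays all above or all below the 4 suckling arrays, which held for 7.72% of tested probes. The permutation p was under 0.05 for just such probes, so these 2 results are 1 observation. The mean was higher in weaned piglets for 6 of the 9 genes and lower for 3; over all tested probes the share with a higher weaned mean was 54.6%. The median log2 difference, weaned minus suckling, was 0.28 over the 9 genes and 0.04 over all tested probes. 

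**Figure D1:**
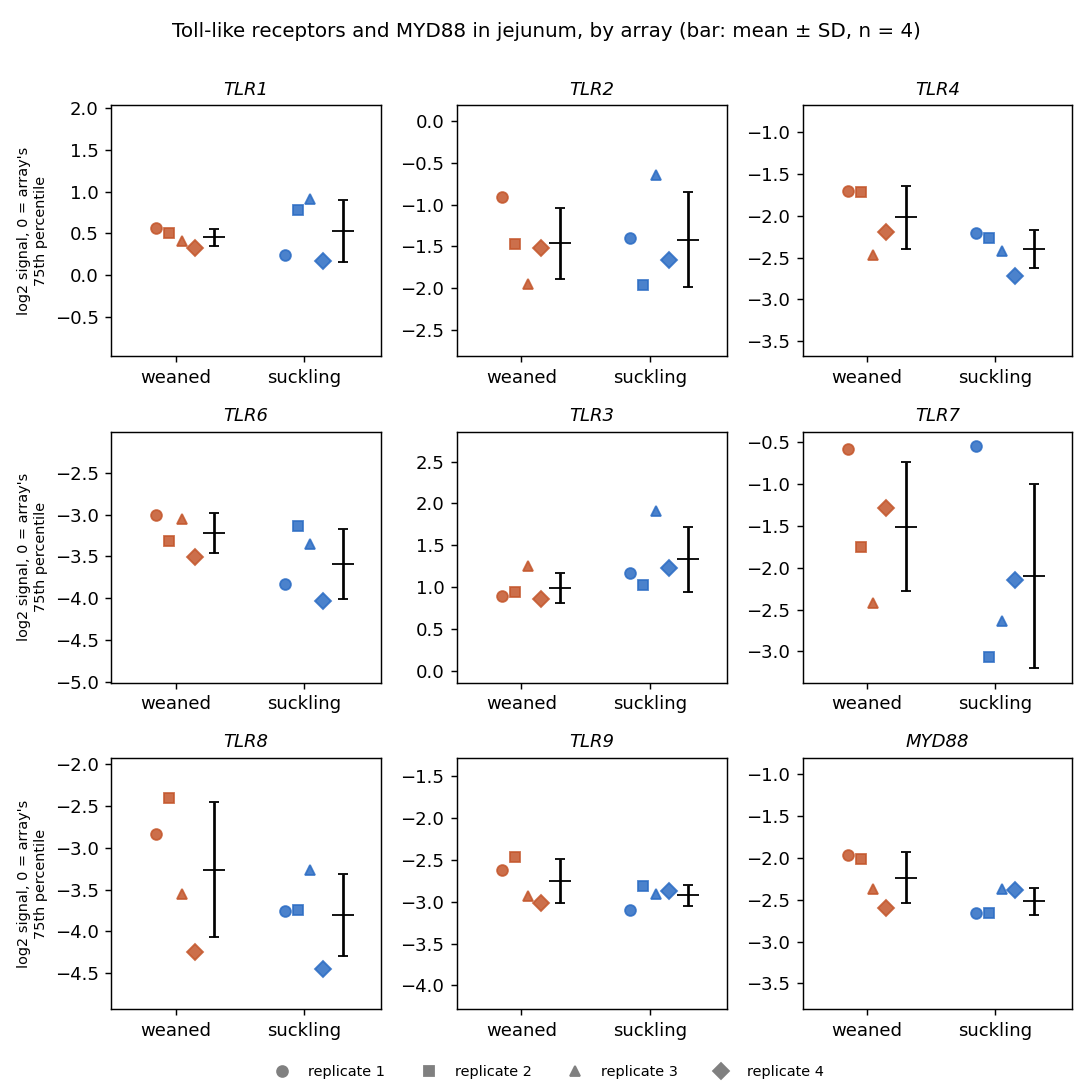
Log2 processed signal of each gene relative to its array's 75th percentile (y axis, 3 log2 units in every panel), weaned arrays on the left and suckling arrays on the right; symbols give the replicate number and black bars the mean ± SD of 4 arrays. The groups overlap in all 9 panels, and TLR7 has its 2 highest values in the 2 arrays numbered 1.

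Among the surface receptors, TLR4 recognises lipopolysaccharide of Gram-negative bacteria. Its log2 signal was -1.71, -1.71, -2.47 and -2.19 in weaned replicates 1 to 4, against -2.21, -2.26, -2.41 and -2.72 in suckling replicates 1 to 4. Weaned replicates 1 and 2 were above every suckling array, weaned replicate 4 was just above the highest of them and weaned replicate 3 lay below all but suckling replicate 4. The mean was -2.02 ± 0.38 in weaned and -2.40 ± 0.23 in suckling piglets (SD, n = 4 each), which differ by 0.38 (SE 0.22, limma adjusted p = 0.511). The 95% interval of the difference ran from -0.10 to 0.87, that is from 0.931-fold to 1.83-fold of the suckling level.

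TLR4 was the gene with most probes, 4 in all, and each gave a higher mean in weaned piglets. The next brightest probe followed the chosen one closely over the 8 arrays (r = 0.961, across arrays that share both probes) and gave a difference of 0.31 (SE 0.20). The 2 dimmest probes gave 0.19 (SE 0.37) and 0.13 (SE 0.54), with correlations of 0.532 and 0.705 to the chosen probe. The last of these was above background on only 2 weaned and 3 suckling arrays. All 4 probes read the same RNA samples, so their shared sign is not independent. The dimmer probes were thus noisier, and none of the 4 estimates exceeded 2 standard errors.

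The genes that work with TLR4 at the membrane were measured beside it. CD14, which hands lipopolysaccharide to TLR4, was 0.77, 0.17, -0.63 and -0.37 in weaned replicates 1 to 4 and -0.44, -0.92, -0.66 and -1.16 in suckling replicates 1 to 4. As with TLR4, weaned replicates 1 and 2 were the highest, and weaned replicate 3 lay among the suckling arrays. The log2 difference of CD14 was 0.78 (SE 0.31, limma unadjusted p = 0.0314, adjusted p = 0.360). LY96, the MD-2 protein that binds lipopolysaccharide within the TLR4 complex, differed by 0.15 and LBP, the plasma protein that carries it, by 0.28 (limma adjusted p = 0.830 and 0.841).

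TLR2 binds bacterial lipoproteins as a partner of TLR1 or TLR6. Its log2 signal was -0.91, -1.47, -1.95 and -1.53 in weaned replicates 1 to 4, and -1.40, -1.96, -0.65 and -1.67 in suckling replicates 1 to 4. The highest value was that of suckling replicate 3, and the lowest were suckling replicate 2 and weaned replicate 3, so both groups covered nearly the same range. The log2 difference was -0.05 (SE 0.31, limma adjusted p = 0.966), with a 95% interval from -0.75 to 0.66. A change of up to 1.58-fold upward or to 0.594-fold downward lies within that interval.

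TLR1 was 0.56, 0.51, 0.41 and 0.33 in weaned replicates 1 to 4, and 0.24, 0.79, 0.91 and 0.18 in suckling replicates 1 to 4. The weaned arrays kept within 0.23 log2 units of each other and lay inside the suckling arrays, which spread over 0.73 units with replicates 2 and 3 above and 1 and 4 below. The means were 0.45 ± 0.10 in weaned and 0.53 ± 0.37 in suckling piglets (SD, n = 4 each), which differ by -0.07 (SE 0.20, limma adjusted p = 0.907).

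TLR6 was -3.00, -3.32, -3.05 and -3.51 in weaned replicates 1 to 4, against -3.83, -3.13, -3.35 and -4.04 in suckling replicates 1 to 4. The suckling arrays were split as for TLR1, and replicates 1 and 4 were the lowest of all 8 arrays for this gene. The log2 difference was 0.37 (SE 0.23, limma adjusted p = 0.555), with a 95% interval from -0.15 to 0.89. TLR1 and TLR6 are close relatives, and the gene table of the Sscrofa11.1 assembly lists TLR10, TLR1 and TLR6 next to each other on 1 chromosome and gives TLR6 as a second name of TLR1; how far the probes share signal was not tested, since the files used here hold no probe sequences. Deviations from the group mean ran together for TLR1 and TLR6 (r = 0.866 over 8 arrays, a description).

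Of the endosomal receptors, TLR3 binds double-stranded RNA and signals through TICAM1 in place of MYD88. It was 0.90, 0.94, 1.25 and 0.86 in weaned replicates 1 to 4 and 1.17, 1.02, 1.90 and 1.23 in suckling replicates 1 to 4. Of the weaned arrays 3 lay below every suckling array, and weaned replicate 3 lay above 3 of them, while suckling replicate 3 was the highest. The means were 0.99 ± 0.18 in weaned and 1.33 ± 0.39 in suckling piglets (SD, n = 4 each), which differ by -0.34 (SE 0.21, limma adjusted p = 0.551), with a 95% interval from -0.82 to 0.14. TLR3 had the most negative difference of the 9 genes. Its second probe gave -0.23 (SE 0.17) and followed the chosen one across arrays (r = 0.959). Without suckling replicate 3 the TLR3 difference was -0.15.

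TLR7, a sensor of single-stranded RNA, had the widest spread of the set. It was -0.58, -1.75, -2.42 and -1.29 in weaned replicates 1 to 4 and -0.55, -3.07, -2.63 and -2.14 in suckling replicates 1 to 4. The arrays numbered 1 in the weaned and suckling groups were nearly equal and above all others. The standard deviation of TLR7 over the 8 arrays was 0.94, and 4.38% of all tested probes had a larger one. The log2 difference was 0.59 (SE 0.56, limma adjusted p = 0.711), and its 95% interval, from -0.68 to 1.86, takes in changes from 0.624-fold to 3.63-fold. Without suckling replicate 1 the difference of TLR7 was 1.11 (SE 0.42, limma unadjusted p = 0.0285, adjusted p = 0.172), and without suckling replicate 2 it was 0.27. With both arrays numbered 1 left out, an alternative added once the values were known, it was 0.80 (limma adjusted p = 0.305). In the 7 arrays without suckling replicate 1, 1.81% of tested probes passed the threshold and none of the 9 genes did.

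TLR8, which also detects single-stranded RNA and whose listed span overlaps that of TLR7 in the Sscrofa11.1 table, was -2.83, -2.41, -3.55 and -4.24 in weaned replicates 1 to 4, and -3.75, -3.75, -3.26 and -4.45 in suckling replicates 1 to 4. Weaned replicates 1 and 2 were the highest of the 8 arrays, and both arrays numbered 4 were the lowest. The log2 difference was 0.54 (SE 0.40, limma adjusted p = 0.619), with a 95% interval from -0.37 to 1.46. It was 0.26 without weaned replicate 2 and 0.87 without weaned replicate 4.

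TLR9, the sensor of unmethylated CpG DNA, varied least. Its values lay between -3.01 and -2.46 in weaned arrays and between -3.10 and -2.81 in suckling arrays. The log2 difference was 0.17 (SE 0.17, limma adjusted p = 0.727), with a 95% interval from -0.21 to 0.55, so a change beyond 1.46-fold upward lies outside it. Of all tested probes, 82.7% had a larger standard deviation over the 8 arrays than TLR9.

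MYD88, the adaptor itself, was -1.96, -2.01, -2.37 and -2.59 in weaned replicates 1 to 4, against -2.66, -2.65, -2.37 and -2.38 in suckling replicates 1 to 4. Weaned replicates 1 and 2 stood above every suckling array, whereas weaned replicates 3 and 4 lay within the suckling range. The means were -2.23 ± 0.30 in weaned and -2.52 ± 0.16 in suckling piglets (SD, n = 4 each). The log2 difference was 0.28 (SE 0.18, limma adjusted p = 0.574), or 1.22-fold, with a 95% interval from 0.911-fold to 1.62-fold. It was 0.19 without weaned replicate 1 and 0.40 without weaned replicate 4.

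**Figure D2:**
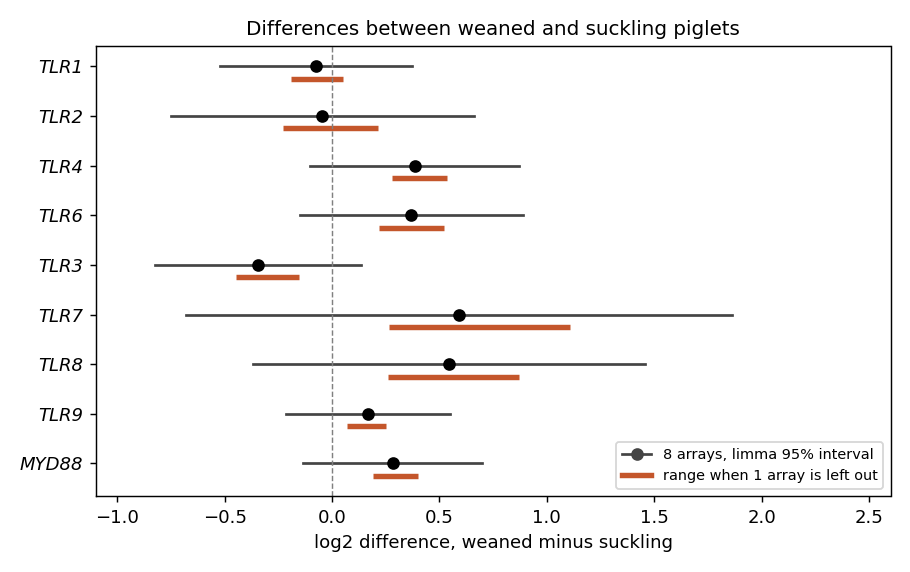
Log2 difference, weaned minus suckling, of each gene (x axis), with limma's 95% interval over 8 arrays in grey and, in orange, the range of the difference when each array in turn is left out. All 9 intervals cover 0; TLR4, TLR6, TLR7, TLR8, TLR9 and MYD88 stay above 0 and TLR3 below 0 in every run with 1 array left out.

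The surface receptors had a median log2 difference of 0.16 and the endosomal ones of 0.36. Of their means, 2 of 4 and 3 of 4 were higher in weaned piglets, against 54.6% of all tested probes. The difference between these classes was not tested. Some arrays were high or low within their group for many of the genes. Weaned replicate 1 was the highest weaned array for 6 of the 9 genes, and weaned replicate 4 the lowest weaned array for 6. Among suckling arrays, replicate 3 was the highest for 5 genes and replicate 4 the lowest for 4. Suckling replicate 1, the array that stood apart, was the lowest of its group for 2 genes and the highest for 2. Weaned replicate 1 also had the lowest 75th percentile of the weaned arrays, 316, against which all its values were set. With 1 piglet per array, animal and array cannot be told apart. These ranks were not counted over all tested probes.

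**Figure D3:**
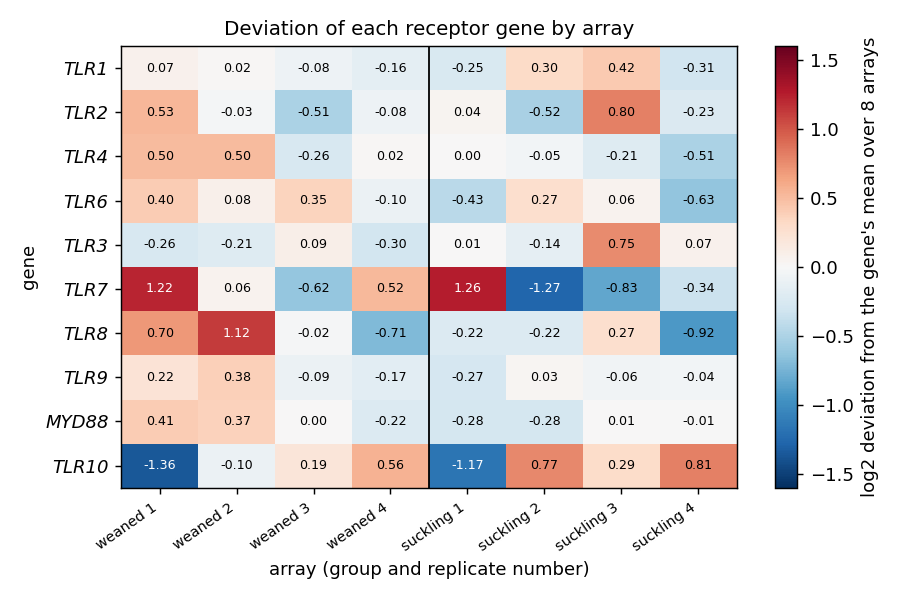
Log2 deviation of each gene (rows, with TLR10 added) from its mean over the 8 arrays (columns, weaned left and suckling right of the line); red is higher and blue lower. TLR7 is high and TLR10 low in both arrays numbered 1, and TLR8 is low in both arrays numbered 4.

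TLR10, a family member outside the set that in humans is known from B cells, was opposite to TLR7 in the arrays numbered 1. It was -4.95 in weaned replicate 1 and -4.76 in suckling replicate 1. The other 6 arrays lay between -3.69 and -2.78. Its log2 difference was -0.35 (SE 0.52, limma adjusted p = 0.819). Arrays with the same number share a position on their slides, and no label says more of what they share.

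Of the 36 pairs among the 9 genes, 27 correlated positively over the 8 arrays, with a median r of 0.366. The strongest pair was TLR9 with MYD88 (Pearson r = 0.846, exact permutation p = 0.0105, adjusted p = 0.240 over the 36 pairs; Spearman rho = 0.667, exact permutation p = 0.0831, adjusted p = 0.567). Without the 2 arrays farthest from the TLR9 median r was 0.342, so this relation rests on those arrays, weaned replicates 1 and 2 being the highest for both genes. TLR8 with MYD88 had r = 0.768 (exact permutation p = 0.0266, adjusted p = 0.240) and rho = 0.762 (exact permutation p = 0.0368, adjusted p = 0.567), with r = 0.167 without the 2 farthest arrays. For TLR1 and TLR6 r was 0.643 (exact permutation p = 0.0863, adjusted p = 0.514) and rho 0.643 (exact permutation p = 0.0962, adjusted p = 0.567), and r was 0.910 without the 2 arrays farthest from the TLR1 median. With both groups centred on their own means, r was 0.811 for TLR9 with MYD88 and 0.707 for TLR8 with MYD88. No pair passed after adjustment; each slide holds 4 arrays, too few for a value within a slide.

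Across the 8 arrays and 2766 other tested genes with a symbol, the genes most like each receptor were listed by Pearson r, as a description; with so many genes and so few arrays, high values are to be had for any gene. MYD88 was most like BCL2A1 (r = 0.956), VPREB1 (r = 0.948) and SPI1 (r = 0.947). TLR4 was most like HP (r = 0.936), CD72 (r = 0.932) and CCR7 (r = 0.929), and TLR2 most like C5AR1 (r = 0.904), MADCAM1 (r = 0.891) and CXCL9 (r = 0.841). TLR7 was most like SRRM2 (r = 0.978), IFN-DELTA-6 (r = 0.961) and BIRC5 (r = 0.956). The closest gene was MTURN for TLR1 (r = 0.917), COPS2 for TLR3 (r = 0.953), HPS6 for TLR6 (r = 0.962), EIF4A3 for TLR8 (r = 0.922) and UPRT for TLR9 (r = 0.966).

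The pathway around the receptors was described with 9 lists of 110 genes, of which 68 had a probe and 63 were tested. None of the 63 passed the limma threshold; at an unadjusted p under 0.05 there were 12 higher and 1 lower in weaned piglets, where 7.62% and 4.65% of all tested probes were so. The exact permutation test could not decide this, since its smallest p, 0.0286, became 0.370 after adjustment over all tested probes. The groups did not overlap for 8 of the 63, with weaned arrays above in 7 and below in 1, against 4.83% and 2.89% of all tested probes. The mean was higher in weaned piglets in 49 of 63 genes, against 54.6% of all tested probes. The median log2 difference was 0.23.

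Of 21 tested cytokine and effector genes that Toll-like receptor signalling is known to induce, 20 had a higher weaned mean, against 54.6% of all tested probes. Their median log2 difference was 0.52. No member of the list passed the threshold. By limma, 6 were higher at an unadjusted p under 0.05, against 7.62% of all tested probes. TNF, an inflammatory cytokine released early, was 0.05, 0.60, 0.26 and -0.10 in weaned replicates 1 to 4, and -0.65, -0.47, -1.11 and -0.64 in suckling replicates 1 to 4. All 4 weaned arrays were above all 4 suckling arrays, and the log2 difference was 0.92 (SE 0.21, limma adjusted p = 0.155). With the deposited log2 table in place of the scanner files, TNF passed, at 1.26 (limma adjusted p = 0.0354). No pathway gene passed with quantile normalization of the scanner files. The cause of the change in the TNF difference was not tested. CXCL8, the neutrophil chemokine interleukin 8, was 2.71 ± 0.35 in weaned and 1.91 ± 0.30 in suckling piglets (SD, n = 4 each), again without overlap, a difference of 0.80 (SE 0.22, limma adjusted p = 0.233). NOS2, the inducible nitric oxide synthase, differed by 2.63 (SE 0.55, limma adjusted p = 0.140) and passed without suckling replicate 3, at 3.17 (limma adjusted p = 0.0388). This list shares genes with earlier descriptions of these arrays and is no independent evidence of a direction.

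**Figure D4:**
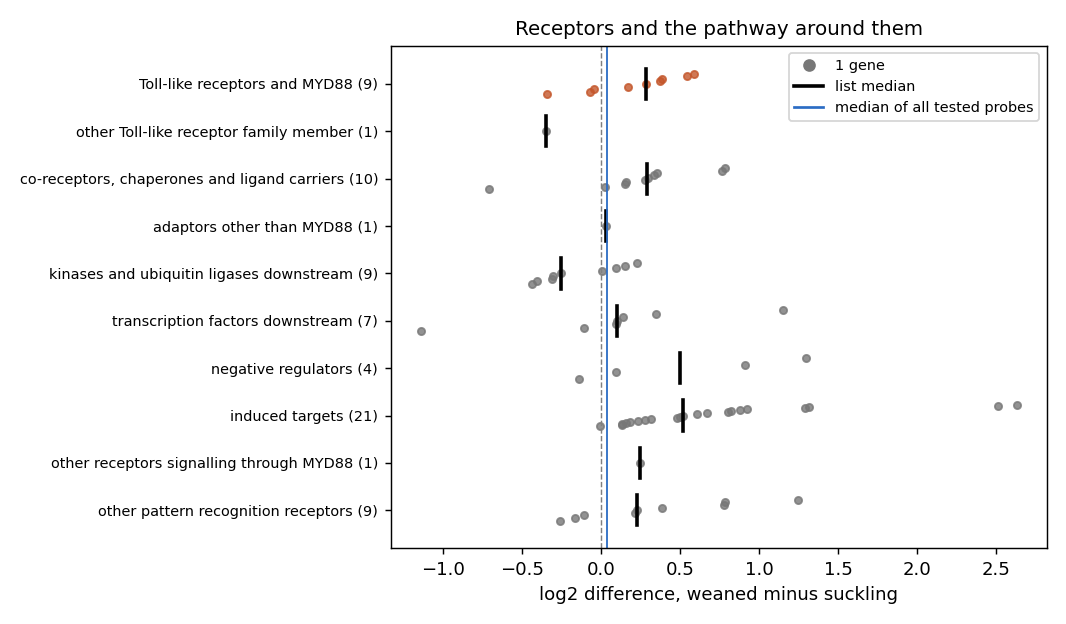
Log2 difference, weaned minus suckling, of each tested gene (points) in the receptor set (orange) and in 9 pathway lists (grey), with the number tested in brackets, the list median in black and the median of all tested probes as a blue line at 0.04. The induced targets have a median of 0.52 and the downstream kinases one of -0.25, with the receptor set between them at 0.28.

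Among co-receptors, chaperones and ligand carriers, 9 of 10 tested genes had a higher weaned mean, against 54.6% of all tested probes. Their median log2 difference was 0.29. BPI, a protein that binds lipopolysaccharide and kills bacteria, was 4.29, 3.79, 3.80 and 4.38 in weaned replicates 1 to 4, and 3.22, 3.36, 3.26 and 3.37 in suckling replicates 1 to 4. The groups did not overlap for BPI, whose difference was 0.76 (SE 0.18, limma adjusted p = 0.170). CNPY3, a chaperone that helps several Toll-like receptors fold, differed by 0.33 (SE 0.13, limma adjusted p = 0.369), also without overlap. HSP90B1, the endoplasmic reticulum chaperone of these receptors, differed by 0.30 (SE 0.36, limma adjusted p = 0.780).

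Downstream kinases and ubiquitin ligases had 4 of 9 means higher, against 54.6% of all tested probes. Their median log2 difference was -0.25, and this was the one list here with several tested genes whose median was below 0. TBK1, a kinase that activates IRF3, differed by -0.31 (SE 0.15) and IRAK4, the kinase that binds MYD88 directly, by -0.41 (SE 0.22), with limma adjusted p-values of 0.447 and 0.488. MAPK14, the p38 stress kinase, differed by -0.25 (limma adjusted p = 0.591). TRAF6, the ubiquitin ligase after the IRAK kinases, differed by -0.44 (limma adjusted p = 0.608). TRAF6, LY96, LBP and HSP90B1 fall outside the naming rule and were named for their place in the pathway after their values were seen. TICAM2, the one other adaptor measured, differed by 0.03 (SE 0.22, limma adjusted p = 0.971).

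Among transcription factors, JUN, a subunit of AP-1, was 5.21, 5.61, 5.65 and 5.36 in weaned replicates 1 to 4, and 6.70, 5.91, 6.71 and 7.10 in suckling replicates 1 to 4. Every weaned array was below every suckling array, and the log2 difference was -1.14 (SE 0.25, limma adjusted p = 0.152). IRF1 differed by 0.34 (SE 0.15, limma adjusted p = 0.408) without overlap between the groups. IRF7, which drives interferon genes after TLR7 and TLR9, was 4.42, 4.23, 5.23 and 4.50 in weaned replicates 1 to 4, against 4.83, 2.17, 4.86 and 1.93 in suckling replicates 1 to 4. Suckling replicates 2 and 4 were far below the others, and suckling replicates 1 and 3 lay among the weaned arrays. Its difference was 1.15 (SE 0.69, limma adjusted p = 0.542).

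Of 4 tested negative regulators, PPARG, a nuclear receptor known to restrain inflammatory genes, differed by 1.29 (SE 0.32, limma adjusted p = 0.194), with all weaned arrays above all suckling arrays. SOCS3, an inhibitor of cytokine signalling, differed by 0.91 (SE 0.35, limma adjusted p = 0.357), and NFKBIA, the inhibitor that holds NF-kB in the cytoplasm, by -0.14 (SE 0.20, limma adjusted p = 0.812). Of 9 other pattern recognition receptors and their partners, 6 had a higher weaned mean, against 54.6% of all tested probes. Their median log2 difference was 0.23. CASP1, the inflammasome protease, differed by 0.78 (SE 0.28, limma adjusted p = 0.319), DHX58, a cytoplasmic RNA sensor, by 1.25 (SE 0.57, limma adjusted p = 0.428) and STING1, an adaptor of DNA sensing, by 0.39 (SE 0.25, limma adjusted p = 0.562). IL18R1, an interleukin 18 receptor chain that also signals through MYD88, differed by 0.24 (SE 0.23, limma adjusted p = 0.706).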

How the data were processed

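Per the labels' protocols, total jejunal RNA (integrity number 7.0 or more) was labelled with Cy3 and hybridised to 1-colour arrays. Per the submitters' processing notes and the file headers, scans were read with Agilent Feature Extraction 10.7, and the deposited files give per spot a processed intensity, already background-subtracted, with raw spot and background intensities and flags. The deposited series table holds log2 values with a common distribution over its 8 columns; how it was made is not given in the sources used here, and its additive constant is unknown.

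From the processed intensities, control spots and outlier spots were left out, log2 values were set against each array's 75th percentile, and spots of a probe were averaged. RefSeq accessions without versions were matched to the Sscrofa11.1 gene table, used for names and neighbours, which named 6924 of 43603 probes (85.6% of those with a RefSeq accession). Probes well above background on at least 4 arrays with at least 3 values per group were tested, 30556 in all, with limma 3.58.1 in R 4.3.3 (two-sided, group as the sole term, Benjamini-Hochberg over all tested probes). Intervals are limma's 95% intervals for single genes; the number of arrays limits the precision. Exact permutation tests used the 70 arrangements of 4 against 4 (smallest p 0.0286). Of each pathway list, the text names members past the threshold or else the 3 with the smallest p; 4 further genes are named for their role. The members and lists were chosen with earlier results of these data known. The limma step was tested on simulated data.

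The alternatives were quantile and median scaling, normexp with an offset of 50 on median intensities (the files hold no mean intensity), no filter or a stricter one on dim probes, outlier spots kept, a robust prior with an intensity trend, the deposited log2 table, the replicate block, each array left out, the mean over a gene's probes and, added after seeing the data, both arrays numbered 1 left out.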

Additional observations from a re-analysis of the deposited data

Results flagged for a closer look

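In the 60 groups of 4 arrays formed by the 9 receptor genes and the 21 named pathway genes, 2 held an array far from the other 3, by the gap to its nearest neighbour divided by the range of the group; chance gives about 1 group in 20. Suckling replicate 2 was the highest suckling array for TICAM2, with a ratio of 0.872. Suckling replicate 3 was the highest suckling array for NOS2, with a ratio of 0.9. None of the 9 receptor genes had such an array in either group.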

How the results depend on the processing

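None of the 9 genes passed the threshold under any of the alternatives run, though the exact permutation test could not have passed any gene. Of the 9 genes, 5 to 8 had a higher weaned mean. In 4 of the 8 runs with 1 array left out, 1 of the 9 genes, a different one each time, had a limma unadjusted p under 0.05. Over all tested probes, the 8 runs had from 2487 of 30208 to 6827 of 30346 at such a p. The median log2 difference of the 9 genes lay between 0.19 and 0.40 with 1 array left out, and was 0.09 with normexp. With normexp, the differences of TLR6, TLR7 and TLR8 were 0.09, 0.28 and 0.13, against 0.37, 0.59 and 0.54 as reported. TLR1 moved away from 0, from -0.07 to -0.12. Signs turned for TLR9 with normexp (-0.0058), for TLR1 without suckling replicate 2 or 3 (range with 1 array left out -0.19 to 0.052) and for TLR2 without weaned or suckling replicate 3 (-0.23 to 0.21); the cause was not tested. Over all probes, 54 passed, against 9 to 548 with 1 array left out (548 without suckling replicate 1), 16 with both arrays numbered 1 left out, 0 by the exact permutation test, whose smallest p is too large for it, and 0 with the replicate block (4183 at an unadjusted p under 0.05 by limma). Same-numbered arrays deviated together at r = 0.368, 0.00766, 0.186 and -0.0178, and the numbers were not taken as pairs in the reported fit. These values do not show whether the numbers follow litter. Since the labels give no litter per array, litter could not enter the fit, which is a limit of it. Of the pathway genes, 1 passed with the deposited table and 0 to 1 with 1 array left out. Slide as a block was not run, because slide and group coincide.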
